A study of Homo sapiens with 6 samples.

Results

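The genes described here are the 32 enzymes and regulators of cholesterol and fatty acid synthesis, a named list matched by gene symbol to the deposited tables. All 32 had 1 row each among the 39739 gene rows, and 18 are enzymes of the cholesterol pathway, 6 are regulators of sterol levels and 8 are enzymes of fatty acid synthesis. RNA-seq libraries came from 2 groups of 3, HGC27-FN1 3′-UTR cells and HGC27-control cells. The parent line, HGC27, is an established human gastric cancer cell line, and both groups were grown in RPMI-1640 with fetal bovine serum. The HGC27-FN1 3′-UTR cells carried the 3′ untranslated region of *FN1*, the fibronectin gene, stably overexpressed from a lentivirus and selected with puromycin. They were a selected population rather than a described clone, and what the control cells carry is not given in the sources used here. Nothing says whether replicates were separate cultures, so p-values measure the spread between these libraries, which may be technical. The question asked of the genes was whether the cholesterol and the fatty acid arms moved together or apart between the 2 groups.

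Cells build cholesterol from acetyl-CoA through mevalonate, farnesyl diphosphate, squalene and lanosterol, and they build fatty acids from the same acetyl-CoA through malonyl-CoA. Both arms are switched on by the SREBP transcription factors, which are made as membrane proteins and released by cleavage after SCAP carries them from the endoplasmic reticulum to the Golgi. When sterols are plentiful the INSIG proteins hold SCAP back. SREBP-2, from *SREBF2*, acts mainly on cholesterol genes and SREBP-1, from *SREBF1*, mainly on fatty acid genes, so the 2 arms often move together but need not. SREBPs bind weakly alone and act beside NF-Y, which binds the CCAAT box, and Sp1, which binds GC boxes.

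The promoters of these genes are shown first because NF-Y and SREBP sites are what the arms are known to share. RefSeq promoter windows on GRCh38.p14, from 250 bases before to 50 bases after each start, were found for 28 of the 32 genes. A gene was counted when any of its windows held the letters, on either strand. CCAAT was present for 21 of 28 genes, or 75%, against 39.7% of all 27305 genes with a window and 43.9% of the 8159 of them expressed at 1 RPKM or more in each library. By arm it was present for 13 of 15 cholesterol enzymes, for 5 of 7 fatty acid enzymes and for 3 of 6 sterol regulators. GGGCGG, the Sp1 box, was present for 27 of 28, or 96.4%, against 48.3% of all genes and 78.0% of the expressed ones. TCACNCCAC, a strict form of the sterol regulatory element, was found in 1 of 28 genes, *SREBF2*, or 3.57%, against 1.39% of all genes, and a looser element would not be found by these letters. These matches describe letters in the windows and not binding. The CCAAT boxes are shown for the 5 genes that passed the test of expression and have such a box, and the sterol element for *SREBF2*, each as 30 bases of the gene's own strand with the motif in capitals, ATTGG being CCAAT read from the other strand.
*HMGCS1*, chr5:43313496-43313525, minus strand, motif 100 bases before the start: tctaccggccgcgATTGGctgtgggagcca
*STARD4*, chr5:111512649-111512678, minus strand, 130 bases before the start: gctcccgcgccagCCAATccgaacaagcgc
*FDPS*, chr1:155308802-155308831, plus strand, 51 bases before the start: ctcccgcgggcacATTGGgagttgtagtct
*SC5D*, chr11:121292702-121292731, plus strand, 56 bases before the start: gcgccggtcgctgATTGGctggccgctcca
*ACSS2*, chr20:34874853-34874882, plus strand, 123 bases before the start: cgccctccttgggATTGGgcagactctcgg
*SREBF2*, chr22:41832961-41832990, plus strand, sterol element 133 bases before the start: atgacgcgccaTCACCCCACgcaccgcttc
The box was found both in *HMGCS1*, which was higher in HGC27-FN1 3′-UTR cells, and in *ACSS2*, which was lower. *PMVK* and *SREBF1*, which were also lower, had no CCAAT in their windows, and *ACAT2* had no window. Genes that did not pass the test were also found with the box, such as *MVK* and *SCD*, and without it, such as *CYP51A1* and *FADS1*. Whether the box goes with the direction of a difference was not tested.

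Levels are given as RPKM, a gene's reads divided by its exon length in kilobases and scaled to 1000000 reads over all genes, and differences as log2 fold changes on the log2(RPKM + 0.1) scale, HGC27-FN1 3′-UTR minus control. A gene is said to be higher or lower where limma gave a Benjamini-Hochberg adjusted p under 0.05 over all 23299 tested genes. The libraries held 16357085 to 37037532 reads assigned to genes, and 3 reads, the least taken as detection, corresponded to 0.081 to 0.1834 reads per 1000000 reads. *FN1* itself, counted over all its exons, was at a mean of 0.78 RPKM in HGC27-FN1 3′-UTR libraries and 0.516 RPKM in control libraries. *VIM*, the mesenchymal intermediate filament, was at 285.7 to 324.2 RPKM in all 6 libraries and *CDH2* at 0.074 RPKM or less, and the sum of 5 mesenchymal markers, most of it *VIM*, was 349.3 to 375.3 against 329.3 to 374.0 RPKM. Of the 4 of these that were tested 2 were higher, *FN1* (limma adjusted p = 0.0292) and *COL1A1*, at a mean of 44.5 against 30.5 RPKM (limma adjusted p = 0.0115). The exons of *FN1* include the 3′ untranslated region that was overexpressed, so reads of the construct cannot be told apart from those of the gene. *FN1* no longer passed when any 1 of the 6 libraries was left out (limma adjusted p of 0.0625 to 0.1), and *COL1A1* passed in 5 of the 6 such fits. The summed RPKM of 5 epithelial markers (*EPCAM*, *CDH1*, *KRT8*, *KRT18* and *KRT19*) was 18.2 to 27.0 in HGC27-FN1 3′-UTR cells and 2.59 to 2.99 in control cells, with 5 of 5 higher. Of 5 fibroblast markers, *LUM* and *THY1* were higher and the sum was 22.9 to 24.4 against 15.2 to 17.8. *LUM* alone was at a mean of 11.8 against 5.97 RPKM. *PDGFRA* lay on the low side, at a mean of 1.99 against 2.31 RPKM with groups that did not overlap, and did not pass (limma adjusted p = 0.117). *DCN* and *PDGFRB* lay above 0 and did not pass either. Of 5 haematopoietic markers 3 had a row, with *PTPRC* at 0.0164 RPKM or less in each library and a sum of 2.03 to 2.66 over all libraries. The part of these marker differences in the results was not tested, and fewer cells of a kind cannot be told apart from less RNA per cell.

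All 32 genes were tested. In HGC27-FN1 3′-UTR cells 5 were higher (*HMGCS1*, *STARD4*, *SC5D*, *FDPS* and *ACAT2*), 3 were lower (*ACSS2*, *PMVK* and *SREBF1*) and 24 did not pass the test. Of all tested genes 5.62% were higher and 7.36% were lower, and among the 13568 expressed at 1 RPKM or more in each library the shares were 7.04% and 10.4%. Median-ratio scaling of the libraries turned 1310 higher and 1715 lower genes into 1696 and 1331, and made 8 of the 32 higher and 2 lower. The values of the 2 groups were fully separate for 11 genes on the higher and 8 on the lower side, where the shares of all tested genes were 14.3% and 21.7%. Taking both sides together, 36.0% of all tested genes were fully separate, and 42.9% of the 13568 expressed at 1 RPKM or more in each library. The median log2 fold change was 0.073, between -0.69 for *TM7SF2* and 0.53 for *HMGCS1*, beside a median of -0.035 over all tested genes. By the study's own criteria, an absolute log2 fold change above 1 with an unadjusted p under 0.05, 0 of the 32 passed. Of all tested genes 2.47% passed, a share at which less than 1 of 32 would pass. Of the 32, 20 lay above 0 and 12 below.

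**Figure D1:**
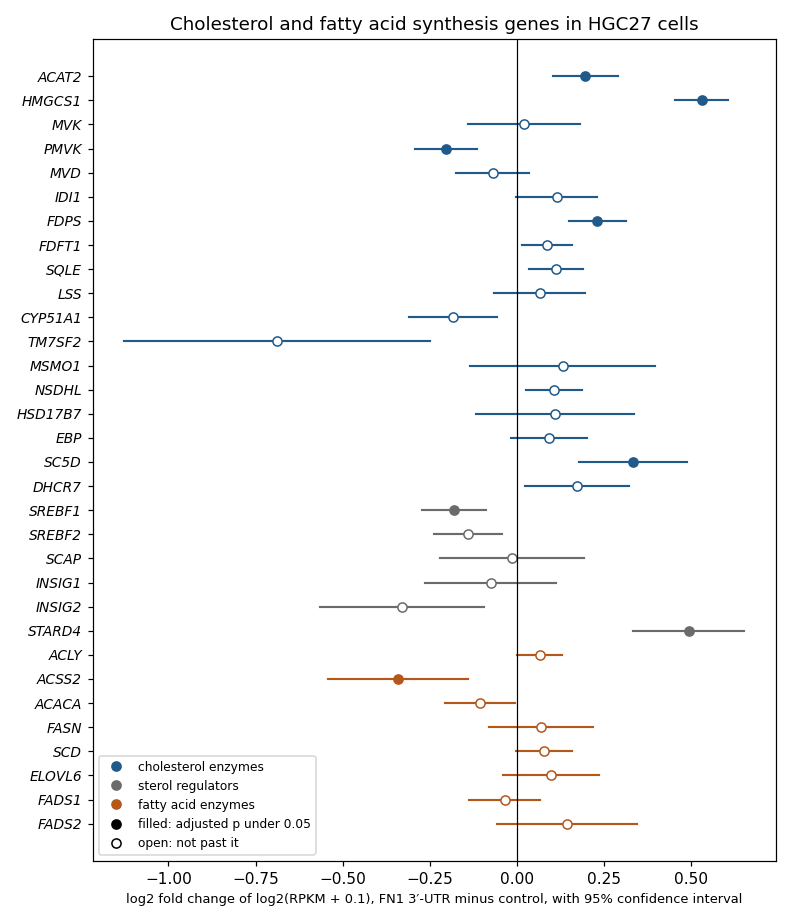
Log2 fold change of each of the 32 genes (x axis, HGC27-FN1 3′-UTR minus control, on the log2(RPKM + 0.1) scale) by gene (y axis, in pathway order), with bars for the 95% confidence interval, n = 3 libraries in each group, and filled points for an adjusted p under 0.05. HMGCS1 at 0.53 and STARD4 at 0.49 lie farthest to the right, and TM7SF2 at -0.69 lies farthest to the left with the widest interval.

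The cholesterol enzymes held 4 of the 5 genes that were higher. Of 18 enzymes 4 were higher, 1 was lower and 13 did not pass the test, 14 lay above 0, and the median log2 fold change was 0.11. Of the 8 fatty acid enzymes 0 were higher by limma, as also by limma's voom on the whole reads recovered from the RPKM and at an unadjusted p under 0.05, where the shares of all tested genes were 5.62%, 8.76% and 12%, so that less than 1 of 8 would be higher at each of these shares. In the reported fit 1 was lower, beside 7.36% of all tested genes, and 7 did not pass. Of the 8 fatty acid enzymes 5 lay above 0, and the median was 0.066. The medians of the 2 arms differed by less than the range of genes within either arm, and the difference between the arms was not tested because the genes of an arm are not replicates. The summed level of the 18 cholesterol enzymes was 316.3, 315.6 and 312.1 RPKM in HGC27-FN1 3′-UTR replicates 1 to 3 and 285.2, 291.7 and 294.3 RPKM in control replicates 1 to 3, a difference of 8.36%. The summed level of the 8 fatty acid enzymes was 237.7, 234.5 and 240.6 RPKM against 223.8, 234.1 and 226.7 RPKM, a difference of 4.12%. Neither pair of groups overlapped, but the lowest HGC27-FN1 3′-UTR sum and the highest control sum of the fatty acid enzymes were 234.5 and 234.1 RPKM. A sum of this kind is set by its most abundant genes, which were *SQLE* and *FDPS* in the cholesterol arm and *SCD* and *ACLY* in the fatty acid arm.

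**Figure D2:**
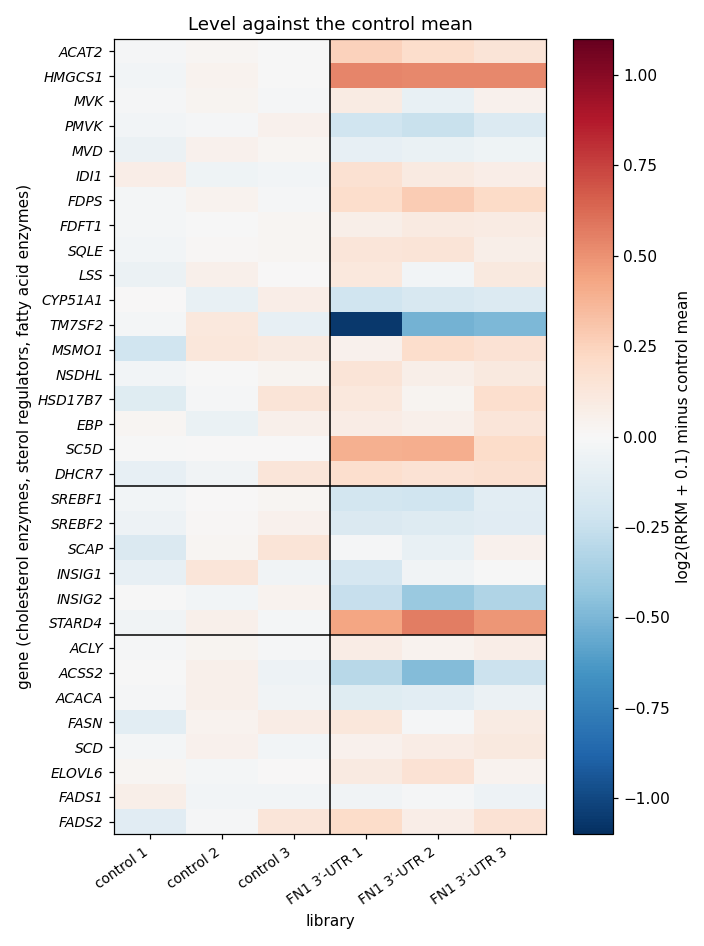
Level of each of the 32 genes (rows) in each of the 6 libraries (columns), as log2(RPKM + 0.1) minus the mean of the 3 control libraries, red above and blue below. HMGCS1, STARD4 and SC5D are red in all 3 HGC27-FN1 3′-UTR libraries, the rows of FASN and SCD are pale, and TM7SF2 is the deepest blue row.

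The first stage of the cholesterol pathway, from acetyl-CoA to farnesyl diphosphate, had 3 of its 7 measured enzymes higher and 1 lower. The shares of all tested genes were 5.62% higher and 7.36% lower. *HMGCS1*, which makes HMG-CoA from acetoacetyl-CoA at the entry to the mevalonate route and is a classic SREBP-2 target, was the gene with the largest rise among the 32. It was at 19.3, 19.2 and 19.1 RPKM in HGC27-FN1 3′-UTR replicates 1 to 3 and at 13.0, 13.7 and 13.2 RPKM in control replicates 1 to 3. The groups were far apart and each was tight, with means of 19.2 ± 0.080 and 13.3 ± 0.353 RPKM (SD, n = 3 each), a difference of 44.6%. The log2 fold change was 0.53 (SE 0.031, limma adjusted p = 6.77e-04). It stayed between 0.51 and 0.55 when any 1 library was left out.

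*ACAT2*, the cytosolic thiolase that joins 2 acetyl-CoA into acetoacetyl-CoA one step before, was also higher, by less. Its level was 15.0, 14.4 and 13.9 RPKM in HGC27-FN1 3′-UTR cells and 12.5, 12.8 and 12.5 RPKM in control cells, so the groups did not overlap. The log2 fold change was 0.20 (SE 0.038, limma adjusted p = 0.0245). The adjusted p was 0.0376 without HGC27-FN1 3′-UTR replicate 3, and leaving out any 1 of the other 5 libraries ended the call, at up to 0.0775. *FDPS*, which condenses isoprene units into farnesyl diphosphate, the branch point to sterols, ubiquinone and prenylated proteins, was at 55.1, 58.5 and 55.8 RPKM in HGC27-FN1 3′-UTR cells and 47.4, 49.4 and 47.7 RPKM in control cells. All 3 values of the first group lay above all 3 of the second, with a log2 fold change of 0.23 (SE 0.034, limma adjusted p = 0.0108) that still passed when any 1 of the 6 libraries was left out.

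*PMVK*, which adds the second phosphate to mevalonate, was the 1 enzyme of the stage that was lower. It was at 27.6, 27.1 and 28.8 RPKM in HGC27-FN1 3′-UTR cells and at 31.4, 31.7 and 33.1 RPKM in control cells. Every HGC27-FN1 3′-UTR library was below every control library, with a log2 fold change of -0.20 (SE 0.037, limma adjusted p = 0.0193). It no longer passed without HGC27-FN1 3′-UTR replicates 1 or 2 or control replicates 2 or 3, at an adjusted p of up to 0.0699. The other enzymes of the stage did not pass: *MVK*, the kinase before *PMVK*, was at 0.02, *MVD*, the decarboxylase after it, at -0.07, and *IDI1*, the isomerase that makes the allylic isoprene unit, at 0.11 on the log2 scale.

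**Figure D3:**
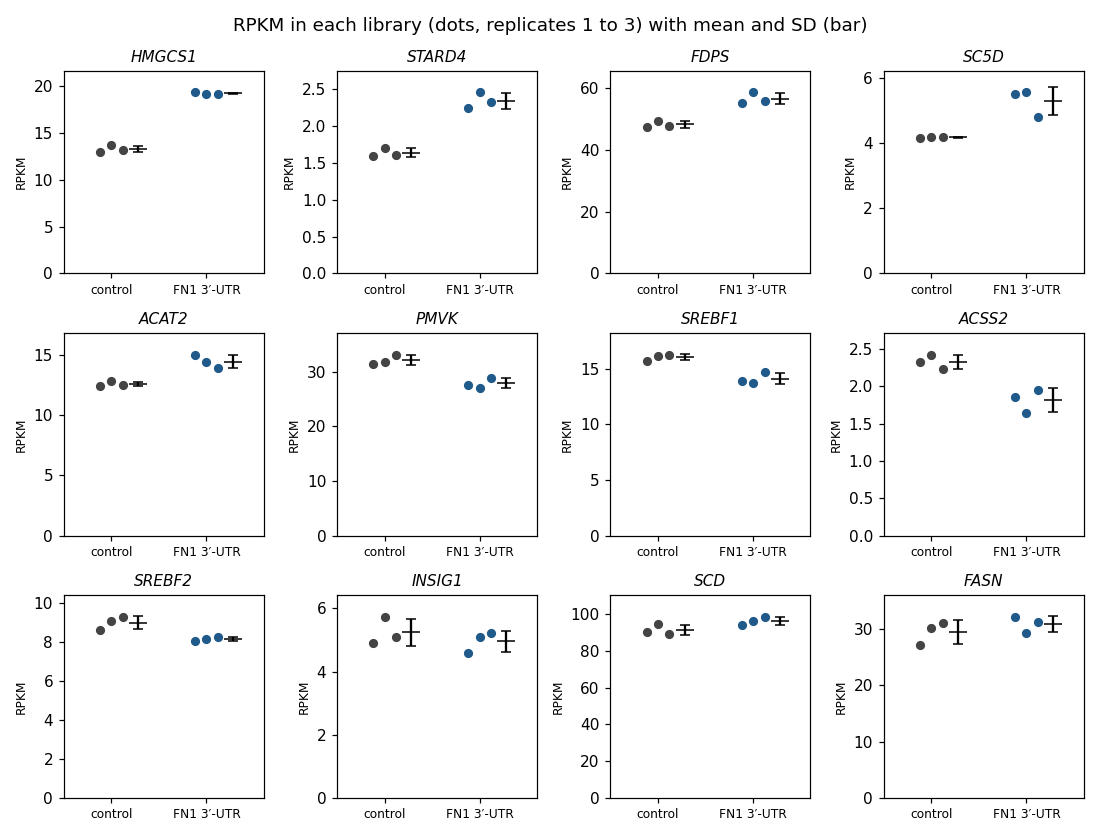
RPKM (y axis, from 0) of 12 genes in the 3 control and 3 HGC27-FN1 3′-UTR libraries (dots, replicates 1 to 3 from left to right), with the mean and SD of each group as a bar. The groups are apart for the 8 genes that passed the test, from HMGCS1 to ACSS2, and for SREBF2, and they overlap for INSIG1, SCD and FASN.

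The middle stage, which closes the sterol ring, had 0 of 3 enzymes past limma's test. On the higher side, 2 of the 3 had an unadjusted p under 0.05 and groups that did not overlap. Of all tested genes 12% were higher at an unadjusted p under 0.05, and 14.3% had groups fully separate on the higher side. *SQLE* passed with voom on recovered reads, and with median-ratio scaling both *SQLE* and *FDFT1* passed, as 2 of 3. *SQLE*, the epoxidase that is a rate-limiting step after mevalonate, was the most abundant cholesterol enzyme here. It was at 85.5, 85.8 and 81.5 RPKM in HGC27-FN1 3′-UTR cells and at 76.3, 78.6 and 79.0 RPKM in control cells, a log2 fold change of 0.11 (SE 0.032, limma adjusted p = 0.0708). *FDFT1*, the squalene synthase that commits farnesyl diphosphate to sterols, was at 16.0, 16.5 and 16.4 RPKM against 15.1, 15.3 and 15.6 RPKM, a log2 fold change of 0.09 (SE 0.030, limma adjusted p = 0.114). *LSS*, the cyclase that makes lanosterol, was at 0.06 on the log2 scale with groups that overlapped.

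The last stage, from lanosterol to cholesterol, had 1 of 8 measured enzymes higher, beside 5.62% of all tested genes, and values on both sides of 0. *SC5D*, the C5 desaturase of the sterol ring, was at 5.50, 5.55 and 4.81 RPKM in HGC27-FN1 3′-UTR cells and at 4.16, 4.17 and 4.18 RPKM in control cells. The control values were nearly equal and replicate 3 of the HGC27-FN1 3′-UTR cells was lower than the other 2, but still above every control. The log2 fold change was 0.33 (SE 0.064, limma adjusted p = 0.0233). It passed without HGC27-FN1 3′-UTR replicate 3, at an adjusted p of 0.0170, and no longer passed when any 1 of the other 5 libraries was left out, at up to 0.0841.

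The other 7 enzymes of this stage did not pass the test. *TM7SF2*, a sterol C14 reductase, had the fewest reads of the 32 genes, 19 to 96 per library, and the largest difference on this scale. Its level was 0.341, 0.541 and 0.553 RPKM in HGC27-FN1 3′-UTR cells and 0.801, 0.895 and 0.761 RPKM in control cells, so that the groups did not overlap, with a log2 fold change of -0.69 (95% confidence interval -1.13 to -0.25, limma adjusted p = 0.0574). It was -0.30 with a pseudocount of 1, smaller than the 0.50 of *HMGCS1* and past the threshold, and -0.50 without HGC27-FN1 3′-UTR replicate 1, and it passed with voom on recovered reads (adjusted p = 0.00604). *CYP51A1*, the lanosterol demethylase, was also on the low side, at 4.92, 5.07 and 5.15 RPKM against 5.76, 5.43 and 6.06 RPKM (log2 fold change -0.18, limma adjusted p = 0.0700). *NSDHL*, *EBP*, *HSD17B7* and *MSMO1*, which work on the same ring, lay between 0.09 and 0.13 on the log2 scale. *DHCR7*, the last reductase of one of the branches, was at 0.17 with an adjusted p of 0.125 from limma and groups that did not overlap. Without control replicate 3 its adjusted p was 0.0327.

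Among the 6 regulators 1 was higher and 1 was lower, and 5 lay below 0, with a median log2 fold change of -0.11. Of all tested genes 5.62% were higher and 7.36% lower, and their median also lay below 0, at -0.035. *STARD4*, a cytosolic sterol carrier protein whose gene is an SREBP-2 target, was at 2.25, 2.46 and 2.33 RPKM in HGC27-FN1 3′-UTR cells and at 1.59, 1.71 and 1.61 RPKM in control cells. The 2 groups were well apart, a difference of 43.2%, with a log2 fold change of 0.49 (SE 0.066, limma adjusted p = 0.00816) that still passed when any 1 library was left out. *HMGCS1* and *STARD4* had the 2 highest log2 fold changes of the 32, and they were the 2 that also passed at an adjusted p under 0.01.

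The genes for the SREBPs themselves lay on the low side. *SREBF1* was at 13.9, 13.7 and 14.7 RPKM in HGC27-FN1 3′-UTR cells and at 15.7, 16.1 and 16.3 RPKM in control cells. All 3 values were below all 3 of the control, with a log2 fold change of -0.18 (SE 0.038, limma adjusted p = 0.0292). The call was kept without HGC27-FN1 3′-UTR replicate 3 and was lost when any 1 of the other 5 libraries was left out, at an adjusted p of up to 0.106. *SREBF2* was at 8.03, 8.15 and 8.24 RPKM against 8.62, 9.05 and 9.28 RPKM, also without overlap, and did not pass (log2 fold change -0.14, SE 0.040, limma adjusted p = 0.0698). These are transcript levels, and the cleaved active SREBPs were not measured.

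The retention proteins and the escort did not pass the test. *INSIG1*, which is itself an SREBP target, was at 4.59, 5.08 and 5.23 RPKM in HGC27-FN1 3′-UTR cells and at 4.91, 5.73 and 5.08 RPKM in control cells. The groups overlapped, with a log2 fold change of -0.08 (95% confidence interval -0.26 to 0.11, limma adjusted p = 0.582). *INSIG2*, the second retention protein, was at 0.681, 0.601 and 0.642 RPKM against 0.828, 0.813 and 0.854 RPKM, a log2 fold change of -0.33 from 44 to 125 reads per library (limma adjusted p = 0.0761). It was -0.16 with a pseudocount of 1, and it passed as lower without the trend in the prior variance. *SCAP*, the escort, was at 3.46, 3.31 and 3.62 RPKM against 3.13, 3.54 and 3.86 RPKM, with a log2 fold change of -0.01 (95% confidence interval -0.22 to 0.19). All 3 values lay below 0, that of *SCAP* changing sign in 3 of 15 alternative settings, and the groups overlapped for *INSIG1* and *SCAP* but not for *INSIG2*.

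In the fatty acid arm the only gene past the test was *ACSS2*, which was lower. *ACSS2* makes acetyl-CoA from acetate in the cytosol and nucleus and is a known SREBP target. It was at 1.86, 1.63 and 1.95 RPKM in HGC27-FN1 3′-UTR cells and at 2.32, 2.42 and 2.23 RPKM in control cells, without overlap. The log2 fold change was -0.34 (SE 0.083, limma adjusted p = 0.0456), close to the threshold, and it no longer passed when any 1 of the 6 libraries was left out, at an adjusted p of 0.0601 to 0.146. *ACLY*, which makes the same acetyl-CoA from citrate, was at 89.5, 87.0 and 88.7 RPKM against 83.5, 86.4 and 83.7 RPKM, a log2 fold change of 0.06 (limma adjusted p = 0.177).

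The enzymes that make and modify the fatty acid chain gave small differences of either sign. *FASN*, the synthase that builds palmitate, was at 32.2, 29.2 and 31.2 RPKM in HGC27-FN1 3′-UTR cells and at 27.1, 30.2 and 31.1 RPKM in control cells, which overlap. Its log2 fold change was 0.07 (95% confidence interval -0.08 to 0.22, limma adjusted p = 0.526). *SCD*, the stearoyl-CoA desaturase and the most abundant of the 32 genes, was at 94.1, 96.4 and 98.5 RPKM against 90.2, 94.4 and 89.4 RPKM, a log2 fold change of 0.08 (95% confidence interval -0.0028 to 0.16, limma adjusted p = 0.183). *ACACA*, the carboxylase that makes malonyl-CoA, was at -0.11 with groups that did not overlap. The elongase *ELOVL6* was at 0.10, and the desaturases of polyunsaturated chains *FADS1* and *FADS2* were at -0.04 and 0.14. None of these 6 passed the test.

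Around the 32 genes, 71 other genes of sterol and fatty acid handling were listed in 7 groups, of which 66 were tested. Of these 1 was higher and 4 were lower, beside shares of 5.62% and 7.36% for all tested genes, and the median log2 fold change was -0.042. In sterol uptake and transport 1 of 10 was lower: *VLDLR*, a lipoprotein receptor, at 2.13, 2.03 and 2.09 RPKM in HGC27-FN1 3′-UTR cells and at 3.21, 3.21 and 3.27 RPKM in control cells, a log2 fold change of -0.61 (SE 0.051, limma adjusted p = 0.00197). The values within each group were close and the groups far apart. Of the 10 genes 1 was higher and 3 were lower at an unadjusted p under 0.05, and 1 and 2 with voom. The shares of all tested genes that were higher in these ways were 12% and 8.76%. Of 7 genes of the LXR sensors and sterol efflux 3 were lower: *ABCG1*, an exporter of cholesterol, by -0.46 on the log2 scale (limma adjusted p = 0.0479), *RXRB*, a partner of the LXRs, by -0.22 (limma adjusted p = 0.0232) and *NR1H3*, which encodes LXRα and drives *SREBF1*, by -0.22 (limma adjusted p = 0.0366). The median of this group was -0.19, and *ABCA1*, the other main exporter, was at -0.19 without passing the test, though it passed with voom (adjusted p = 0.0416). At an unadjusted p under 0.05 and also with voom, 5 of the 7 were lower and 0 higher. The shares of all tested genes that were lower in these ways were 17.6% and 13.2%. Leaving out any 1 of the 6 libraries ended the calls of *ABCG1* and *NR1H3*, at a limma adjusted p of up to 0.127 and 0.128, and *RXRB* passed only without HGC27-FN1 3′-UTR replicate 3, at up to 0.0927 otherwise. In SREBP processing and turnover 0 of 8 passed limma's test, with 1 lower at an unadjusted p under 0.05 and 1 lower with voom. In the isoprenoid branch 1 of 8 was higher, *COQ2* of ubiquinone synthesis, at 0.27 (limma adjusted p = 0.0159). It no longer passed without HGC27-FN1 3′-UTR replicates 1 or 2 or control replicate 2, at up to 0.0585. In that branch 2 were higher and 1 was lower at an unadjusted p under 0.05, and also with voom.

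The genes of fatty acid supply, glycerolipid synthesis and fatty acid oxidation gave no calls. There were 0 of 15, 0 of 7 and 0 of 11 tested genes past the limma threshold, where 5.62% and 7.36% of all tested genes would give about 1 or fewer in each direction, and their medians were -0.056, -0.035 and -0.013 on the log2 scale. At an unadjusted p under 0.05 there were 1 higher and 3 lower, 1 and 1, and 0 and 3 genes, beside 12% higher and 17.6% lower of all tested genes. With voom there were 1 and 0, 0 and 1, and 0 and 2, beside 8.76% and 13.2%. *THRSP*, *ELOVL5*, *ACSL5*, *PLIN2* and *PDK4* were too low to test, all at 0.094 RPKM or less in each library.

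Some rows overlap other genes. The library kit was strand-specific, but the sources used here do not give the strand setting of the counting, so reads of a gene and its antisense partner may not be separable. *HMGCS1* shared 15.0% of its exon length with *CTD-2636A23.2* on the other strand, which was at a mean of 8.90 RPKM in the first group and 6.65 RPKM in the control. *FDPS* shared 18.6% with *RUSC1-AS1*, at 22.8 and 19.4 RPKM. *STARD4* shared 2.18% with *STARD4-AS1*, at 2.21 and 1.76 RPKM, and *ACAT2* shared 43.0% with *SOD2*, at 2.69 and 2.77 RPKM, and 9.23% with the more abundant *TCP1*, at 45.9 and 44.8 RPKM. *SREBF1* shared 6.92% with *RAI1*, at 6.16 and 6.25 RPKM. *CYP51A1* shared 78.8% with *LRRD1* on its own strand, at 2.56 and 2.96 RPKM, so the assignment of its reads is uncertain. *PMVK*, *SC5D* and *ACSS2* shared no exon bases with another gene in the tables. The part of these overlaps in the results was not tested.

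**Figure D4:**
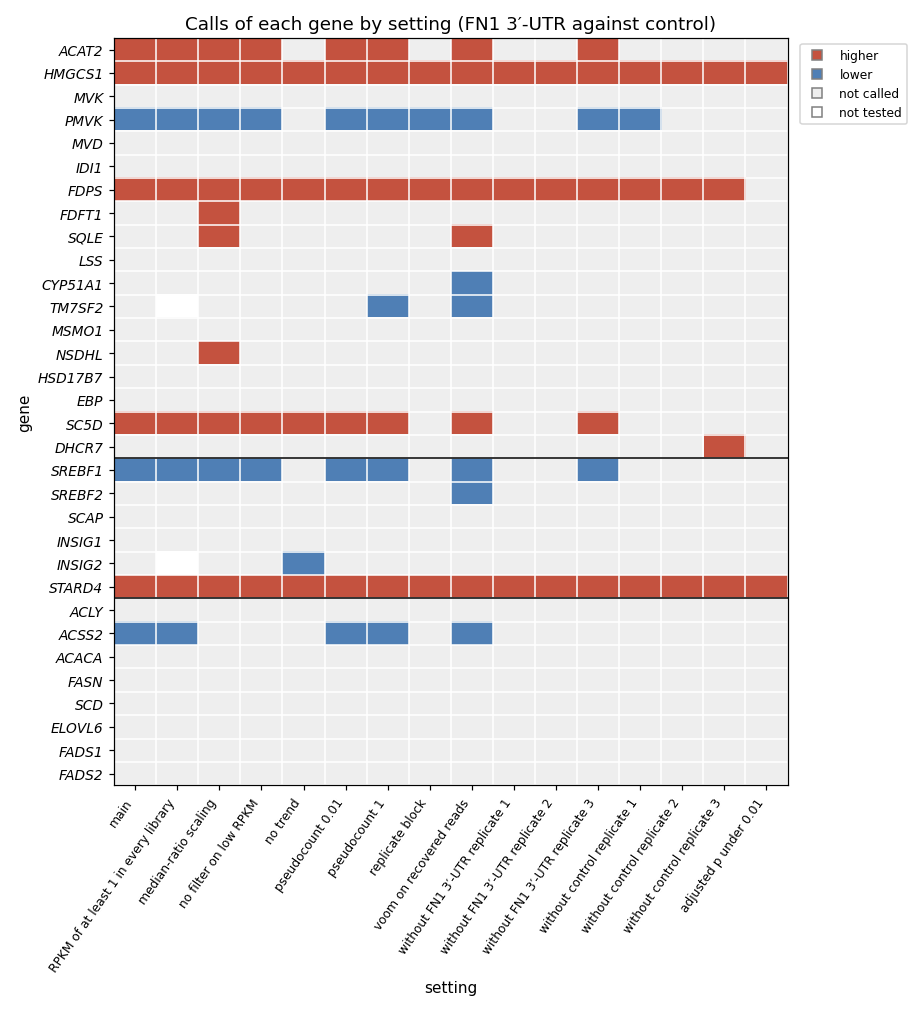
Calls of each of the 32 genes (rows) in the fit as reported and in 15 alternative settings (columns), red for higher, blue for lower, grey for not past the threshold and white for not tested. HMGCS1 and STARD4 are red in all 16 columns and FDPS in all but the one with an adjusted p under 0.01, while the other 5 called genes lose their colour in several columns.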

How the data were processed

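The sources used here give a strand-specific mRNA library and Illumina sequencing, and the submitters' processing notes name GRCh38, Trimmomatic 0.36, STAR 2.5.3a, featureCounts and Subread 1.5.1. The authors deposited RPKM per gene, 1 table for each library, with replicates kept apart. The values were whole multiples of 1 read for 100% of entries above 0, which gave the depth. The tolerance was 0.01 reads and grew in proportion for genes with many reads, so the check is loose for the most abundant genes. Groups and replicate numbers came from the sample labels.

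Genes that reached 0.1 RPKM in 3 or more libraries were fitted on log2(RPKM + 0.1) with limma 3.58.1 in R 4.3.3, with group as the only term and a trend in the prior variance. Adjustment was by Benjamini-Hochberg over the 23299 genes. With 3 against 3, an exact permutation test of 1 gene cannot go below p = 0.1, so none is given. Lists are described by counts and medians, with no test. The 32 genes and the other lists were chosen with earlier results of these data known. One gene of the other lists is not reported here and was left out of their counts. Per-library values are given for every one of the 32 genes past the threshold and for a stated set of regulators and enzymes (*SREBF1*, *SREBF2*, *SCAP*, *INSIG1*, *INSIG2*, *FASN*, *SCD*, *HMGCS1*, *SQLE* and *FDFT1*); those of *TM7SF2*, *CYP51A1* and *ACLY* were added after their values were seen. At most 3 genes past the threshold are named from each of the other lists; of these, per-library values are given for *VLDLR* alone, and *ABCA1* was added in the same way. Promoter windows are RefSeq's on GRCh38.p14. The floor on reads covers counting error only, while the intervals are limma's and rest on the spread between libraries. The fit was also run on simulated reads whose noise was independent and alike for all genes. The outcome of that run is not given here, and no result rests on it. The software was Python 3.11.15 with numpy 2.4.6, pandas 2.3.3 and, for plots, matplotlib 3.10.9. Alternatives covered the pseudocount, filters, scaling, voom on recovered reads, the trend, the replicate block, each library left out and the threshold.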

Additional observations from a re-analysis of the deposited data

How the results depend on the processing

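The log2 fold changes of the 8 called genes kept their sign in all 15 alternatives, and *HMGCS1* and *STARD4* passed in all 15. Among genes that did not pass, *SCAP* and *MVK* kept their sign in 12 and 14 of 15. The cholesterol enzymes that were higher, 4 in the reported fit, numbered 7 with median-ratio scaling, 2 with a replicate block, 1 at an adjusted p under 0.01 and 2 to 4 with 1 library left out. Those that were lower, 1 in the reported fit, numbered 2 with a pseudocount of 1, 3 with voom on recovered reads, 0 with no trend or at an adjusted p under 0.01, and 0 to 1 with 1 library left out. The regulators that were lower, 1 in the reported fit, numbered 2 with voom, 0 with the block or at an adjusted p under 0.01, and 0 to 1 with 1 library left out. *ACSS2*, the 1 fatty acid enzyme that was lower, did not pass with median-ratio scaling, no filter, no trend, the block, an adjusted p under 0.01 or any library left out, so those counts were 0. No fatty acid enzyme was higher in any of the 15 alternatives. The median of the cholesterol enzymes was 0.14 with median-ratio scaling, 0.087 with a pseudocount of 1 and 0.084 to 0.12 with 1 library left out, and that of the fatty acid enzymes was 0.10 with median-ratio scaling and 0.033 to 0.083 with 1 library left out. Of the 71 other lipid genes, 5 passed in the reported fit, 3 with no trend, 1 with the block, 16 with voom, 1 at an adjusted p under 0.01 and 1 to 4 with 1 library left out. Over all tested genes, 1310 higher and 1715 lower became 564 and 598 with the block, 2042 and 3066 with voom, 389 and 379 at an adjusted p under 0.01, and 472 to 901 and 431 to 1010 with 1 library left out. The share of calls that were higher was 43.3% in the reported fit and 56.0% with median-ratio scaling (1696 higher and 1331 lower), which moved the median of all genes from -0.035 to -0.0031. Higher calls were also the larger number, at 52.3%, 52.8% and 50.7% of calls, without control replicate 2, without control replicate 3 and at an adjusted p under 0.01. The study's criteria, applied to limma's p-values, gave 575 genes in the reported fit, 70 under a filter of 1 RPKM in each library and 75 with a pseudocount of 1. The study's own gene list is shorter than the 575 and came from its own analysis. Whether the replicate numbers pair the libraries was not settled. Deviations of same-numbered libraries from their group means correlated at only 0.0024, 0.021 and 0.010, yet 5 of 6 libraries correlated best with their own number. With the block, *HMGCS1*, *STARD4*, *FDPS* and *PMVK* passed (adjusted p of 0.0154, 0.0400, 0.0343 and 0.0427 from limma), and *ACAT2*, *SC5D*, *SREBF1* and *ACSS2* did not (0.0709, 0.0636, 0.0659 and 0.118). Apart from the changes that follow from fewer libraries or a stricter threshold, the cause was not tested. *TM7SF2* and *INSIG2* rested on the fewest reads, 19 to 96 and 44 to 125 in a library. *TM7SF2* was -0.30 and *INSIG2* -0.16 with a pseudocount of 1.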

Other observations

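Some of the listed genes have near-identical copies with rows of their own. *HSD17B7P2*, a near-identical copy of *HSD17B7*, was at 1.31 to 2.09 RPKM over the 6 libraries with groups that overlapped, against 1.43 to 1.80 RPKM for *HSD17B7* itself, so reads of the 2 could be split by the counting. *CYP51A1P2* was at 0.206 to 0.489 RPKM and *FDPSP7* at 0.127 to 0.307 RPKM, both with overlapping groups. *STARD4-AS1*, on the other strand of *STARD4*, was at 2.44, 2.04 and 2.13 RPKM in HGC27-FN1 3′-UTR cells and at 1.74, 1.81 and 1.72 RPKM in control cells, with a log2 fold change of 0.31 that did not pass the test (limma adjusted p = 0.0572).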
